A study of Rattus norvegicus with 4 samples.

Results

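Silencing of Tbk1 in rat INS-1 832/13 β-cells was accompanied by changes of 9 transcripts with differing known roles or none described. Crebrf, Muc13, Nxt2, Smim15, Scml2, Jpt2 and Dynlt3 were higher in siTbk1-treated cells and Wbp11 and Lrrc73 were lower, by 1.98-fold to 2.95-fold. The members were found in the deposited gene table by gene name, and all 9 of 9 names were present among 15172 listed genes and among the 13953 genes tested. They had been selected on the measured change itself in these same 4 libraries, so their fold changes are given as a description and no test is given for them.

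INS-1 832/13 is a clonal rat insulinoma line that secretes insulin in response to glucose. Cells received a SMARTpool of siRNAs against Tbk1 (siTbk1) or non-targeting negative control siRNA (siScramble) with DharmaFECT, and RNA was harvested after 36 h from 2 siTbk1-treated and 2 siScramble-treated samples, numbered 2 and 3 in each group. Each group thus stands for 1 cell line and 1 siRNA reagent at 1 time. Effects that follow from loss of TBK1, effects further downstream and effects of the pool on other transcripts cannot be told apart in this design, and the siRNA sequences were not used here.

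TBK1 is a serine/threonine kinase known for its part in innate immune signalling, autophagy and metabolic regulation. Most of the 9 genes work in different processes: transcriptional regulation (Crebrf, a repressor of the endoplasmic reticulum transcription factor CREB3, and Scml2, a Polycomb protein), mRNA handling (Nxt2 in nuclear export and Wbp11 in splicing), membranes (the epithelial mucin Muc13 and the small membrane protein Smim15), and calcium signalling and microtubule transport (Jpt2, which binds the calcium-mobilising messenger NAADP, and Dynlt3, a light chain of cytoplasmic dynein). Lrrc73 encodes a leucine rich repeat protein whose function is little described.

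Values are estimated read counts per gene as deposited and CPM, which are the counts scaled to a library total of 1000000 after TMM scaling. The total count lay between 38428926 and 47759013 per library, at which 3 counts correspond to 0.0628 to 0.0781 CPM. Tbk1 itself had 53.7 and 52.5 CPM in the siScramble libraries 2 and 3 and 11.8 and 13.3 CPM in the siTbk1 libraries 2 and 3, which left 23.7% of the control level. The β-cell markers were present (14 of 15 listed, summed level 19362 and 20300 CPM in controls and 16702 and 14998 CPM with siTbk1), with 3 of them called lower, namely Ins1, Ins2 and Mafa, and 0 called higher. At an adjusted p under 0.05 alone (edgeR), 3 were higher and 6 lower, and the median log2 fold change was -0.17. Iapp had 0.38, Nkx6-1 0.23 and Slc30a8 0.15, and the sum is dominated by Ins1 (10380 and 11090 CPM in controls, 7520 and 6244 CPM with siTbk1). A gene was called when it had an adjusted p under 0.05 in edgeR's quasi-likelihood test and a change of at least 1.5-fold. As RNA of whole cultures was measured, fewer cells of a type and less RNA per cell cannot be told apart. The labels do not say whether the samples came from separate cultures, so the p-values given for other genes measure only the spread between these samples, which may be technical.

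Across all genes tested, 671 were called higher, which is 4.81%, 862 were called lower, which is 6.18%, and 11.0% were called in either direction. At an adjusted p under 0.05 alone (edgeR), 3405 of the 13953 genes were higher and 3459 lower. An unadjusted p under 0.05 was reached by at least as many genes. Counts of lists at that limit are to be read against this background. The 7 higher and 2 lower members were all called, a count that their selection fixes. Non-overlap alone was common. In 38.7% of the genes both siTbk1 libraries lay above both controls and in 37.9% both lay below, and the same held for the 7 higher and 2 lower members respectively, again through their selection. Leaving out siScramble 3 took the lower count to 574. The ranking behind the selection kept called genes that reached 10 CPM in the group where they were higher and moved alike between libraries 2 and between libraries 3. Among 325 such genes with an increase, Crebrf, Muc13, Nxt2, Smim15 and Scml2 held ranks 1 to 5, whereas Jpt2 and Dynlt3, which were taken from genes the study discusses for proliferation, held ranks 52 and 60. Just inside the limit was Scml2 with a log2 fold change of 1.47, and just outside it was Spopl with 1.45 (9.27 and 9.09 CPM in controls, 23.7 and 26.5 CPM with siTbk1). Among 444 such genes with a decrease, Tbk1 came first, and Wbp11 and Lrrc73 held ranks 4 and 5. Ranks 2 and 3 were held by Hmgcs1 (-1.54) and Rps2 (-1.52), which are not members. The members were limited to genes outside pathways listed separately, so size of change alone did not choose them. The next gene down was LOC108348172 with -1.38 (15.5 and 20.0 CPM in controls, 7.93 and 5.49 CPM with siTbk1), against -1.41 for Lrrc73. The 10 CPM limit mattered, since 37 called genes below it had a larger increase than Crebrf and 39 had a larger decrease than Wbp11.

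**Figure D1:**
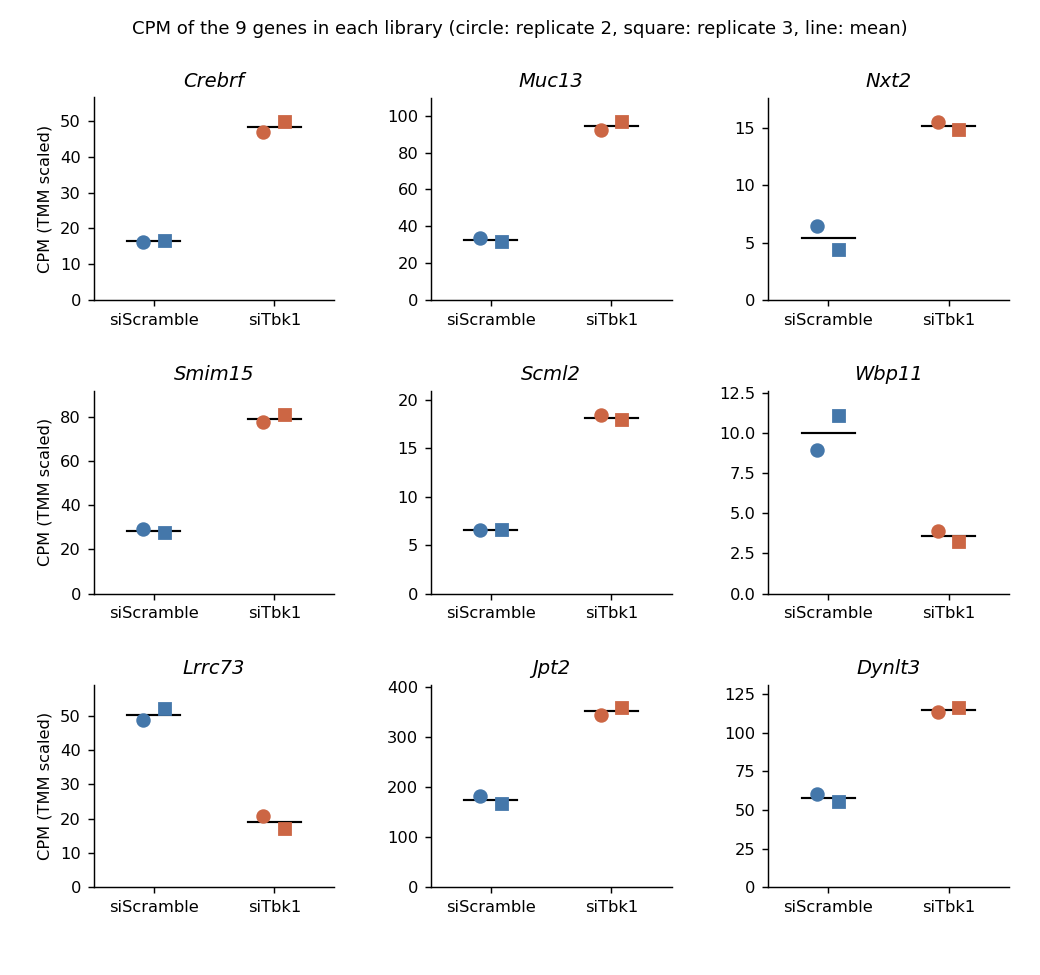
CPM of the 9 genes in each library, with a separate linear axis from 0 for each gene; circles are libraries numbered 2, squares libraries numbered 3, blue siScramble, orange siTbk1 and lines the group means (n = 2). The groups did not overlap for any of the 9 genes, and the widest spread between controls relative to the level was that of Nxt2 (6.43 and 4.37 CPM).

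Promoter windows from 250 bases before to 50 bases after the annotated start were available from RefSeq (GRCr8, a later build than that of the table) for 7 of the 9 members, without Wbp11 and Dynlt3. The 250 bases upstream are shown for Crebrf and Jpt2, a pair of increased genes whose windows held motifs of nutrient and cell cycle factors. They are also shown for Lrrc73, a decreased gene whose window held none of the motifs searched. The window of the increased gene Smim15 held none either, and the other decreased gene, Wbp11, had no window. The choice of these genes thus shows no difference by direction. Capitals mark the E-box, the short cyclic AMP element and the E2F motif, whose letters are spelled out below the sequences, on either strand, and the coordinates are chr10:16966431-16966680 (minus strand) for Crebrf, chr10:14487664-14487913 (minus strand) for Jpt2 and chr9:22226737-22226986 (minus strand) for Lrrc73.
Crebrf: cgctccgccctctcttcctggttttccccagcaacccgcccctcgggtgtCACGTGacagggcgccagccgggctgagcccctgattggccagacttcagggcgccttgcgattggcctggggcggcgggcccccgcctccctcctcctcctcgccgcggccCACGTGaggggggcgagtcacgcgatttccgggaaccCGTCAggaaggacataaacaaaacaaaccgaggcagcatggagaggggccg
Jpt2: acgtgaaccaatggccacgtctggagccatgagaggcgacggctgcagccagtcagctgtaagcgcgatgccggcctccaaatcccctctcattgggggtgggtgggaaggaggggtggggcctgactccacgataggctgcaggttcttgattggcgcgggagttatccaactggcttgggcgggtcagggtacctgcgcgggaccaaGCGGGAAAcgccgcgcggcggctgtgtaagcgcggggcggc
Lrrc73: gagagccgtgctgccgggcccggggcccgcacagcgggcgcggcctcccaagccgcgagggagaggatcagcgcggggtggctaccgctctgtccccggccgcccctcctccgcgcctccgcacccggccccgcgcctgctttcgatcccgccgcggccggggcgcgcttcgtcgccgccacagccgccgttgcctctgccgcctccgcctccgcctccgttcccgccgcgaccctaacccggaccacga

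The Crebrf window held the E-box CACGTG, the core of the sites that TFEB and related factors bind, at 200 and 88 bases before the start, and the short cyclic AMP element TGACG at 51 bases before it. CACGTG was present in 6.42% of all 33469 rat windows and TGACG in 21.2%. The Jpt2 window held the E2F motif TTTCCCGC at 41 bases before the start (0.974% of windows), and that of Nxt2 held the second E2F form TTTGGCGC at 40 bases after it (0.493%). Muc13 held the interferon response motif GAAANNGAA (9.71%). CCAAT was found in 4 members (Crebrf, Jpt2, Muc13 and Scml2) and in 37.5% of windows, and TGATG, a short ATF4 motif, in Muc13 and Scml2 and in 40.1%. The full cyclic AMP element TGACGTCA (1.83%), which contains TGACG, was in none of the 7, nor were GTAAACA (3.78%), TGANTCA (7.33%), TATAAA (14.2%) and TCACNCCAC (1.12%), the motifs of FOXO, AP-1, the TATA box and SREBP. All were searched on both strands, and none of the 12 was common to the higher members.

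The windows differed widely in composition. GC content was 79.0% in Lrrc73, 68.7% in Crebrf, 68.3% in Smim15 and 66.3% in Jpt2, but 41.3% in Nxt2 and 39.7% in Muc13, against a median of 51.7% over all windows. Scml2 had 3 annotated windows with 47.3% to 53.3%. The shares given for the motifs are over all windows and not over windows of like GC content. They therefore do not give how often a motif occurs in GC-rich windows such as those of Crebrf and Jpt2. A motif match describes only the letters of a window, and binding of any factor to these windows was not measured here.

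Crebrf (chromosome 10, 16694792 to 16752206, minus strand; rn6 coordinates as deposited here and for the genes that follow) encodes CREB3 regulatory factor, which binds CREB3 and promotes its breakdown. Its counts were 779.001 and 655.001 in siScramble 2 and 3 and 2206 and 1879 in siTbk1 2 and 3. This corresponds to 16.2 and 16.5 CPM in the controls and to 46.9 and 49.8 CPM after silencing. The 2 libraries of each group lay close together, and the lower siTbk1 library still held 2.84 times the higher control. The level went from 16.4 ± 0.223 to 48.3 ± 2.04 CPM (SD, n = 2), a log2 fold change of 1.56 with a standard error of 0.069.

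None of the 5 tested genes of the CREB3 family and its partners was called by edgeR, although 2 had an unadjusted p under 0.05 and DESeq2 called 1. Crebzf, another bZIP protein of the family, had a log2 fold change of -0.58 with an adjusted p of 0.0038 in edgeR's quasi-likelihood test, just short of the fold limit, and Creb3l1, a membrane-bound transcription factor, had 0.55 with an adjusted p of 0.0063. Both values lay on opposite sides of 0, and the median of the 5 genes was 0.07 against 0.0071 over all genes tested.

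Scml2 (chromosome X, 35305236 to 35431165, minus strand) encodes an MBT domain protein that associates with Polycomb repressive complex 1 (PRC1), which compacts chromatin and ubiquitinates histone H2A. Counts of 315 and 261 in the controls stood against 865 and 676 in the siTbk1 libraries. After scaling, these were 6.56 and 6.59 CPM and 18.4 and 17.9 CPM. The controls were almost identical, with a coefficient of variation of 0.326%, which with 2 libraries is a weak estimate of the spread. The log2 fold change was 1.47 with a standard error of 0.09, and Scml2 was the only member whose change was larger in the libraries numbered 2 (1.49) than in those numbered 3 (1.44). Scml2 spans 126 kb, the longest of the 9, and an annotated pseudogene on the opposite strand lies within it with counts of 1, 2, 6 and 1. The libraries were stranded, but the strand setting of the counting is not given in the sources used here.

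Of 29 tested PRC1 and MBT genes, 0 were called higher and 3 lower, while 18 had an unadjusted p under 0.05 and DESeq2 likewise called 3. Of all genes tested, edgeR called 11.0%. At an adjusted p under 0.05 alone (edgeR), 7 of the 29 were higher and 11 lower, against 3405 and 3459 of all 13953 genes tested. Ring1, a catalytic subunit of PRC1, had 27.6 and 32.1 CPM in controls and 19.6 and 17.0 CPM with siTbk1, a log2 fold change of -0.70 (adjusted p of 8.6e-05, edgeR). Pcgf1, a RING finger subunit of a variant PRC1, fell by 1.47 with a standard error of 0.39 and an adjusted p of 0.008 in edgeR, but from low counts of 57 and 25 to 14 and 14, and it was not called without siScramble 2. Scmh1, the closest relative of Scml2 in the list, had a log2 fold change of 0.15 with an adjusted p of 0.11 in edgeR. The median of the 29 genes was -0.074, near the median of all genes, while Ring1 and Pcgf1 were lower and Scml2 higher.

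Nxt2 (chromosome X, 113510621 to 113517103, plus strand) encodes an NTF2-like export factor that pairs with NXF proteins to carry mRNA through the nuclear pore. It rested on the fewest reads among the higher members, 309 and 173 in the controls and 730 and 561 after silencing. These were 6.43 and 4.37 CPM against 15.5 and 14.9 CPM. The controls differed more from each other (coefficient of variation 27.1%) than those of any other member, whereas the siTbk1 libraries were close. The log2 fold change was 1.48 with a standard error of 0.14, and it was 1.27 between the libraries numbered 2 and 1.77 between those numbered 3. Without siScramble 3 it was 1.24, which placed Nxt2 at rank 16 in place of rank 3.

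Among 27 tested mRNA export genes, edgeR and DESeq2 each called 0, with 14 at an unadjusted p under 0.05. At an adjusted p under 0.05 (edgeR), 6 of the 27 were higher and 7 lower, against 3405 and 3459 of all 13953 genes tested. Nxt1, the paralog of Nxt2, had a log2 fold change of -0.12 (adjusted p of 0.17, edgeR), and the export receptor Nxf1 had -0.22 (adjusted p of 0.0059, edgeR). The full range was -0.31 to 0.49 around a median of -0.03. Nxt2 had been selected for its large change, so its place outside this range follows from the selection.

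Wbp11 (chromosome 4, 170772163 to 170810081, minus strand) encodes a nuclear WW domain binding protein that takes part in pre-mRNA splicing and binds PQBP1 and protein phosphatase 1. Its counts were 430.139 and 438.001 in the controls and 184.007 and 121.16 with siTbk1. Scaled, the controls held 8.95 and 11.1 CPM and the silenced cells 3.91 and 3.21 CPM. Both siTbk1 libraries lay under both controls, by at least 2.29 times. The level after silencing was 35.6% of control, a log2 fold change of -1.48 with a standard error of 0.14, from -1.19 in the libraries numbered 2 to -1.79 in those numbered 3. Its counts departed from whole numbers by at most 0.16.

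Among the partners of WBP11 and the proteins of the U5 and tri-snRNP splicing complexes, 0 of 27 tested genes were called by edgeR or by DESeq2. An unadjusted p under 0.05 was found for 18. At an adjusted p under 0.05 (edgeR), 7 were higher and 8 lower, against 3405 and 3459 of all 13953 genes tested. Log2 fold changes of the 27 genes ran from -0.44 to 0.36 with a median of -0.048. Pqbp1 had -0.14 (adjusted p of 0.095, edgeR).

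Muc13 (chromosome 11, 70185757 to 70211702, minus strand) encodes a membrane-bound mucin of gut and other glandular epithelia. It was detected in the controls with 1625 and 1241.01 counts, and 4341.07 and 3647.98 counts were found with siTbk1. The corresponding levels were 33.8 and 31.3 CPM and 92.3 and 96.7 CPM. The groups were separated by a factor of 2.73 between their nearest libraries, and the log2 fold change was 1.53 with a standard error of 0.064.

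Only 2 of 12 membrane-bound mucin and mucin-like genes on the list were tested, and neither was called by edgeR or DESeq2, nor had an unadjusted p under 0.05. Muc1 had a log2 fold change of 0.17 (adjusted p of 0.6, edgeR) and Mcam had -0.07, and together they held 1.67 to 2.06 CPM per library. Of 16 duct and gut epithelium markers 12 were listed and 11 tested. None was called by edgeR or DESeq2, 4 had an unadjusted p under 0.05, and their median was 0.031. At an adjusted p under 0.05 (edgeR), Cdh1 (0.50), Epcam (0.38) and Tff3 (0.22) were higher and Krt7 (-0.31) was lower. The summed level of the listed markers was 2896 and 2820 CPM in controls and 3293 and 3110 CPM with siTbk1. The adhesion gene Cdh1 made up much of it (777 and 731 CPM against 1080 and 1060 CPM). The duct factor Sox9 was near 0 (0.208 to 0.397 CPM) in every library, and Krt19, Cftr, Spp1 and Lgals4 were not among the listed genes. Of 10 acinar markers 2 were listed, with 34.8 to 36.2 CPM in all, 0 called by edgeR or DESeq2 and 1 at an unadjusted p under 0.05. Of 7 markers of other islet cells 2 were listed, and Gcg, which encodes glucagon, fell by 0.68. Of 12 stromal, endothelial and blood cell markers 4 were listed, and Kdr, a receptor of vascular growth factor, fell by 1.57, from 8.47 and 9.32 CPM to 2.76 and 3.23 CPM. Any part of other cell types in the change of Muc13 was not tested.

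Smim15 (chromosome 2, 39314714 to 39319875, plus strand) encodes a small integral membrane protein of unknown function. The controls held 1411 and 1093 counts and the siTbk1 libraries 3642.97 and 3042.96. On the CPM scale the controls had 29.4 and 27.6 and the silenced cells 77.4 and 80.6. The spread within each group was below 5% of its mean (coefficients of variation 4.43% and 2.85%), and the log2 fold change was 1.47 with a standard error of 0.064. Of all genes tested, edgeR called 4.81% higher and 6.18% lower. Among 16 other tested genes of the Smim series, which share a naming scheme and not a sequence family, Smim31 was called higher (0.70, adjusted p of 3.2e-05 in edgeR). Smim23 was called lower (-1.07, adjusted p of 0.02 in edgeR) on counts of 39 and 29 against 15 and 16, and the median of the 16 was -0.042. DESeq2 called only Smim31, and Smim23 was also not called without siScramble 2 or without siTbk1 2.

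Jpt2 (chromosome 10, 14304104 to 14324212, minus strand) encodes a protein that binds NAADP and couples it to calcium release from acidic stores. It had 8772.74 and 6613.04 counts in the controls and 16232.8 and 13547.9 with siTbk1. The levels were 183 and 167 CPM and 345 and 359 CPM. Every siTbk1 library was at least 1.89 times every control, and the log2 fold change was 1.01 with a standard error of 0.058. The departure of its counts from whole numbers reached 0.26, or 0.003% of the count.

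Its paralog Jpt1 had 115 and 123 CPM in controls and 103 and 95.4 CPM with siTbk1, and thus a log2 fold change of -0.26 that did not reach the fold limit (adjusted p of 0.0033, edgeR). Another NAADP-binding protein, Lsm12, had -0.04, and the TPC channels through which NAADP releases lysosomal calcium had 0.01 (Tpcn1) and 0.35 (Tpcn2, adjusted p of 0.098 in edgeR). While 11.0% of all genes tested were called, of the 9 tested genes on the list only Mcoln3, a lysosomal cation channel, was. It had 4.58 and 3.91 CPM in controls and 8.61 and 8.43 CPM after silencing, a log2 fold change of 1.00 with a standard error of 0.12 and an adjusted p of 5.4e-05 in edgeR.

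Dynlt3 (chromosome X, 14633342 to 14642425, minus strand) encodes a Tctex-type light chain through which cytoplasmic dynein, the minus-end directed microtubule motor, holds cargo. Whole counts of 2915 and 2176 in the controls and 5330 and 4386 with siTbk1 were listed. They correspond to 60.7 and 54.9 CPM and to 113 and 116 CPM. The silenced libraries were nearly equal and both far above the controls, and the log2 fold change was 0.99 with a standard error of 0.063.

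Of 29 tested genes on the dynein and dynactin list, edgeR called 1 higher and 3 lower, against 4.81% and 6.18% of all genes tested. Dctn1, the large dynactin subunit that links dynein to microtubules, fell by 0.82 (271 and 310 CPM to 172 and 158 CPM, standard error 0.069, adjusted p of 4.7e-06 in edgeR). The cargo adaptor gene Bicd2 fell by 0.67 (adjusted p of 7.1e-06, edgeR) and Wdr34, an intermediate chain of the ciliary dynein, fell by 0.75 (adjusted p of 0.0013, edgeR), a call that was lost without siScramble 3. Nde1, a dynein regulator in mitosis and neuronal migration, was the gene called higher (0.65, adjusted p of 0.00014 in edgeR). The closest relative Dynlt1 had -0.02 (adjusted p of 0.78, edgeR), and the spindle checkpoint gene Bub3, whose protein binds DYNLT3, had 0.00 (adjusted p of 0.98, edgeR). The median of the list was -0.023.

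Lrrc73 (chromosome 9, 17111177 to 17114178, minus strand) was the shortest of the 9 genes. Counts of 2338 and 2055 were listed in the controls and 976 and 643 with siTbk1, all whole numbers. These were 48.7 and 51.9 CPM and 20.7 and 17.0 CPM. Silenced cells thus held 37.6% of the control level (log2 fold change -1.41, standard error 0.087), and the controls agreed more closely (coefficient of variation 4.5%) than the siTbk1 libraries (13.9%). Across all genes tested, 4.81% were called higher and 6.18% lower. Of 39 other tested Lrrc genes, which share the repeat and otherwise little, 2 were called higher and 4 lower, around a median of 0.079. Those called with the largest changes were Lrrc4b (-0.91, adjusted p of 0.00012 in edgeR), Lrrc14 (-0.72), Lrrc10b (-0.70) and Lrrc3 (-0.69). DESeq2 called 4 of the 6, without Lrrc10b and Lrrc3. Lrrc10b was also not called without siScramble 2 or siTbk1 3, and Lrrc3 without siScramble 3 or siTbk1 2.

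Over all 9 lists of partners and relatives, 183 genes were tested and 5 were called higher and 11 lower. That is 8.74% of them, against 11.0% of all genes tested, so the share of called partners was not above the background. The Smim and Lrrc lists were formed by gene name and the other 7 by what the proteins are known to do.

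**Figure D2:**
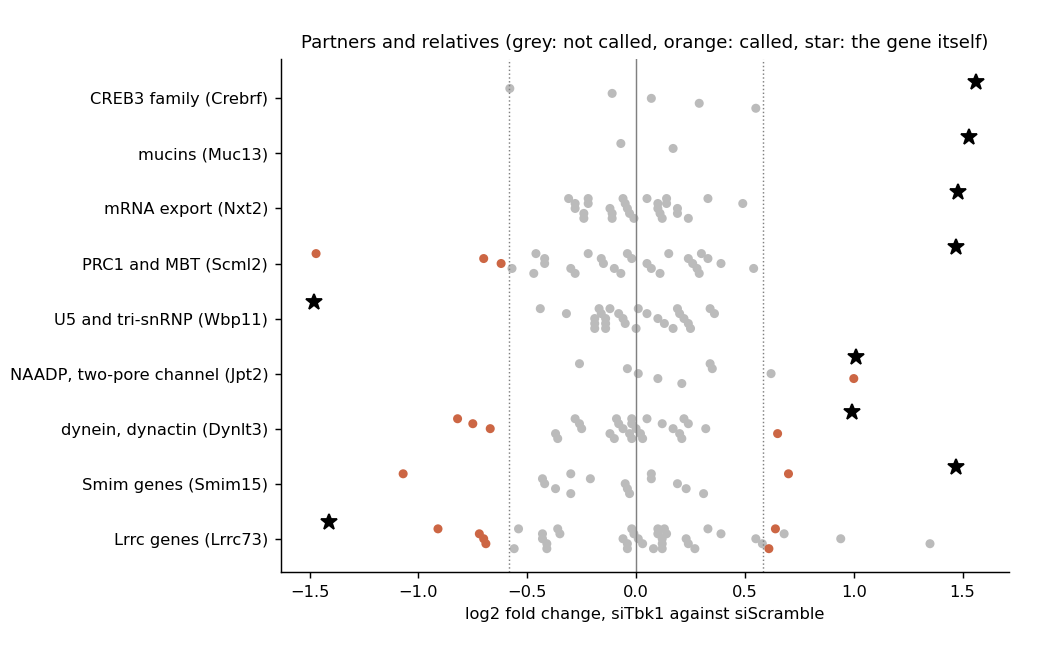
Log2 fold changes (siTbk1 against siScramble) of the tested genes in the 9 lists of partners and relatives, with orange for called and grey for other genes and a star, set slightly above its row, for the member itself. The stars lie at -1.48 to 1.56, outside nearly all points of their own row, which follows from the selection of the members for large changes. The medians of the lists lie between -0.074 and 0.21.

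Each of the 9 members kept a change of at least 1.5-fold when any 1 library was left out, which their selection in these same libraries makes likely. In 8 of 9 members the change was larger between the libraries numbered 3 than between those numbered 2, with Scml2 as the exception. This was also so in 70.2% of the 671 increased and in 85.5% of the 862 decreased genes. The largest differences between both ratios were those of Wbp11 (-1.19 and -1.79), Nxt2 (1.27 and 1.77) and Lrrc73 (-1.23 and -1.61), and the smallest were those of Scml2 (1.49 and 1.44) and Crebrf (1.53 and 1.59).

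**Figure D3:**
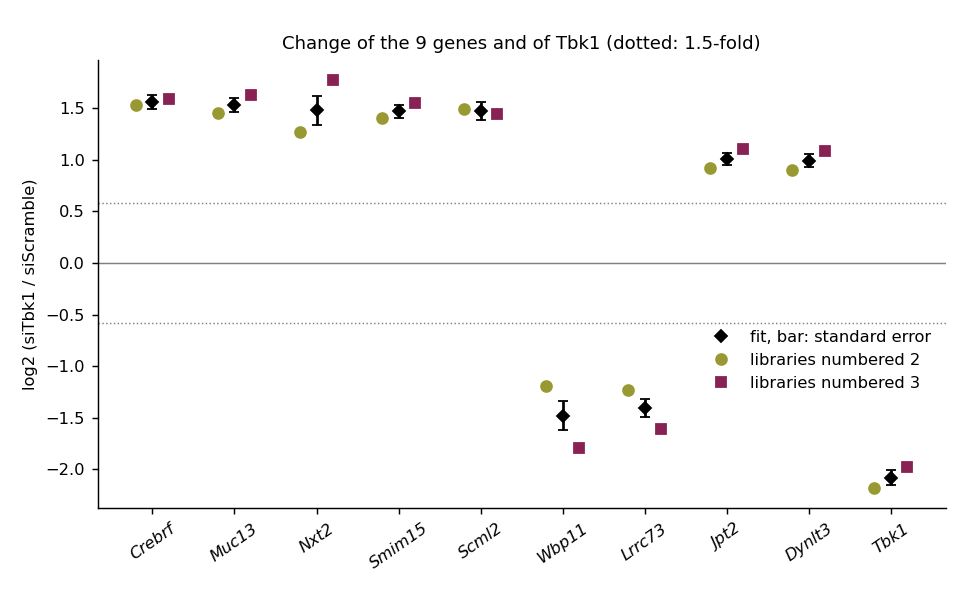
Log2 ratio of siTbk1 to siScramble for the 9 genes and Tbk1, with diamonds and bars for the fitted value and its standard error, circles for libraries numbered 2, squares for libraries numbered 3 and dotted lines at 1.5-fold. All symbols of the 9 genes lie outside the dotted lines, from 0.90 upward for the 7 higher genes and from -1.19 downward for the 2 lower ones.

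The 4 libraries placed several members next to each other. By Euclidean distance between the 4 centred log2 CPM values, among the 9131 genes averaging 10 CPM or more, Jpt2 and Dynlt3 were each other's nearest gene, at a distance of 0.027. Their profile was not rare, since 25 genes lay within 0.1 of Jpt2 and 20 within 0.1 of Dynlt3. Muc13 and Smim15 were likewise each other's nearest gene (0.066), Scml2 lay nearest to Smim15 (0.097), and Crebrf and Nxt2 lay nearest to Muc13 (0.1 and 0.33). For Wbp11 the nearest gene was Lrrc73 (0.17). Wbp11 averages under 10 CPM and so was not itself among the 9131 genes, of which Tgfb2, which encodes a transforming growth factor, lay nearest to Lrrc73 (0.19). With 4 libraries these distances describe mostly the size of the change between the groups, and large changes have few genes near them. Members selected on that size and ranked side by side therefore lie close to each other through the selection.

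Chromosome X carried 3 of the 9 members, Nxt2, Scml2 and Dynlt3, while it held 3.79% of all tested genes. Of its 529 tested genes 7.18% were called higher and 2.08% lower. Crebrf and Jpt2 lie on chromosome 10, of whose 1142 tested genes 2.10% were called higher and 6.39% lower. The genomic spans ran from 3.0 kb for Lrrc73 to 126 kb for Scml2. The genes were divided into deciles of span. Over the deciles that held a member, the median log2 fold change ranged from -0.13 (that of Lrrc73) to 0.12 (that of Scml2). These medians were small beside the changes of the members, which had been selected for large changes.

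No gene near a member was called higher. Within 100 kb, 33 neighbours were listed and 30 tested, of which 0 were called higher and 4 lower by edgeR, or 13.3% against 11.0% of all genes. DESeq2 called 0 higher and 3 lower, and at an unadjusted p under 0.05 there were 6 higher and 16 lower. Over all 13953 genes tested, 3405 were higher and 3459 lower even at an adjusted p under 0.05 (edgeR). Of the 30, 21 had a log2 fold change below 0, with a median of -0.23, against 49.2% of all genes below 0. Without siScramble 3 only 1 neighbour (Mapk8ip3) was called, and without siTbk1 3 there were 2 (Abcc10 and Mapk8ip3). Several of these neighbours lie in the same clusters, so they are not independent of each other.

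Next to Jpt2, Mapk8ip3, which encodes a JNK scaffold protein that links cargo to kinesin and dynein, lies 4.94 kb away on the same strand. It had 53.6 and 55.4 CPM in controls and 25.3 and 23.3 CPM with siTbk1. The groups were well apart in the direction opposite to Jpt2, with a log2 fold change of -1.16, a standard error of 0.067 and an adjusted p of 3.4e-07 in edgeR. Cramp1, 2.59 kb from Jpt2 on its other side, had 0.01, and Eme2, a subunit of a DNA structure-specific endonuclease 47.2 kb away, had -0.62 (adjusted p of 0.013, edgeR).

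The 8 tested neighbours of Lrrc73 lay in a dense cluster, and 7 of them had values below 0. Tjap1, a tight junction protein gene 0.406 kb away on the opposite strand, had -0.37 (adjusted p of 0.0023, edgeR), and Yipf3, a Golgi membrane protein gene 1.17 kb away, had -0.40 (adjusted p of 0.00032, edgeR). Neither reached the fold limit, and Abcc10, a transporter gene 47.4 kb away, was the only one called (-0.78, adjusted p of 0.003 in edgeR). Lrrc73 lay lower than each of its neighbours, as its selection for a large decrease makes likely. The histone gene H2afj, 4.78 kb from Wbp11 on the opposite strand, was called lower as well (-0.72, adjusted p of 0.017 in edgeR), but its 121, 142, 99 and 58 counts kept only a narrow gap between the groups on the CPM scale (2.52 and 3.59 against 2.11 and 1.54). Around the other higher members no neighbour was called. The nearest tested ones had log2 fold changes of -0.06 (Bnip1, by Crebrf), 0.27 (Itgb5, by Muc13), 0.29 (Acsl4, by Nxt2), -0.16 (Ndufaf2, by Smim15) and 0.37 (Xk, by Dynlt3).

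**Figure D4:**
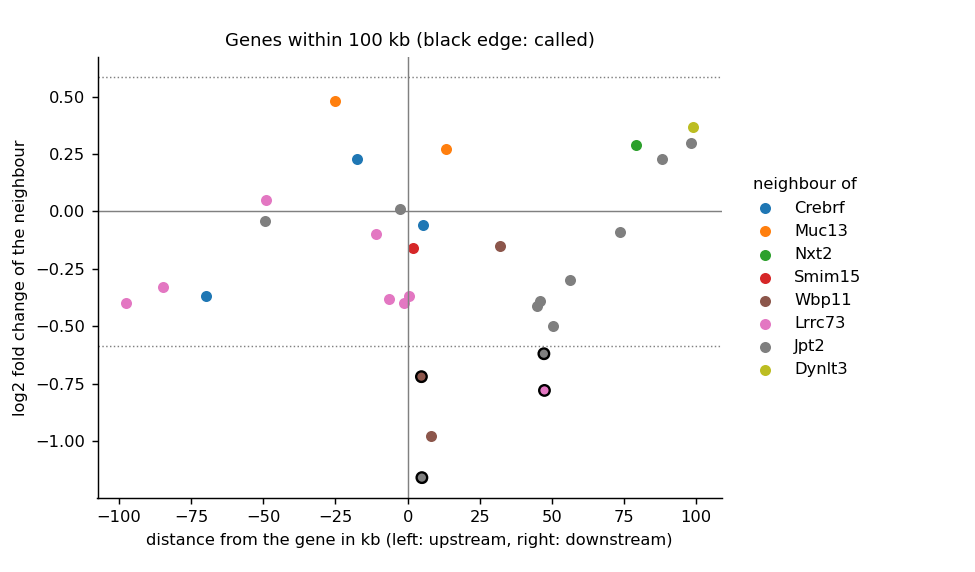
Log2 fold change of the 30 tested genes within 100 kb of a member against the distance from that member in kb (negative upstream, positive downstream), coloured by member, with a black edge for called genes and dotted lines at 1.5-fold. The 4 called neighbours lie at -0.62 to -1.16, and none lies above 0.48.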

How the data were processed

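Polyadenylated RNA of 2 siScramble-treated and 2 siTbk1-treated samples was sequenced from stranded libraries. The submitters' processing notes name STAR 2.6.1d, Partek and the build rn6. The annotation and the counting settings are not given in the sources used here. The authors deposited estimated counts per gene, not scaled between samples, with 21.1% to 22.3% of the values in a library more than 0.01 from a whole number.

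Counts were rounded, filterByExpr at its defaults kept 13953 genes and removed 1219, and TMM factors (0.982 to 1.02) were applied. Groups were compared with glmQLFTest of edgeR 4.0.16 (R 4.3.3, limma 3.58.1), with treatment as the only factor and Benjamini-Hochberg adjustment over all tested genes. Called genes had an adjusted p under 0.05 and at least 1.5-fold change. The standard error is the absolute log2 fold change divided by the square root of F. Alternatives were DESeq2 1.42.0, library size alone, upper quartile factors, no filter, a replicate block, glmTreat, counts rounded down and leaving out each library. The test was run on simulated counts first.

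The members and the lists were chosen with earlier results of these data known. Named besides the members were Tbk1, the genes ranked between it and Wbp11, and the genes ranked next. Also named were up to 4 called genes and the closest paralog of each partner list, called neighbours within 100 kb, and the gene nearest in profile. The values of 1 called partner gene are not reported here. Other partners (among them Creb3l1, Crebzf, Nxf1, Lsm12, Tpcn1, Tpcn2, Bub3 and Mcam), the marker genes and the uncalled neighbours were named for their role or position after their values were seen. Genes whose fractions complement those of a member (within 0.02 in all 4 libraries) numbered 0 for Jpt2 and Wbp11, 6 for Muc13 and 15 for Smim15. The fractions of Muc13 and Smim15 are so close to whole numbers that these genes cannot be told apart, and none is named. Promoters were taken from RefSeq (GRCr8), and figures were drawn with matplotlib 3.10.9.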

Additional observations from a re-analysis of the deposited data

How the results depend on the processing

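All 9 members changed by at least 1.5-fold in the same direction in each of the 11 alternatives other than glmTreat (a test against a 1.5-fold change), which called all 9. As the members had been selected for a large change in these same libraries, this persistence was largely fixed beforehand. Of 110 values of the members and Tbk1 under these alternatives, 108 moved by less than the spread between replicates. The 2 others were both of Scml2 (library size alone and without siTbk1 replicate 2), whose log2 fold change stayed between 1.42 and 1.48. Leaving out 1 of 2 libraries shifts a group mean by less than that spread almost by construction. The count of 108 therefore says little for the refits that leave out a library. The widest ranges on leaving out a library were 1.24 to 1.80 for Nxt2, -1.65 to -1.32 for Wbp11 and -1.57 to -1.28 for Lrrc73. Such a fit leaves 1 sample in an arm, which is assumed to vary like the other group.

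With glmTreat, 163 genes were called higher and 101 lower, with 2 partner genes (Dctn1 and Mcoln3) and 1 neighbour (Mapk8ip3). Leaving out a library gave 552 to 756 genes higher, 574 to 1159 lower (574 without siScramble replicate 3), 15 to 18 partner genes and 1 to 4 neighbours, with Mapk8ip3 alone without siScramble replicate 3, and Abcc10 and Mapk8ip3 without siTbk1 replicate 3. DESeq2 called 495 higher and 738 lower, and library size alone 551 and 1063.

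With a replicate block, 699 genes were called higher and 898 lower, with 17 partner genes, 4 neighbours and 9 members. The labels do not say that the numbers mark a shared culture, and the deviations of same-numbered samples had a Pearson correlation of 0.0041 over 13953 genes (-0.39 over the 7945 genes of at least 4 log2 CPM), and the numbers were therefore not used as pairs. Total counts were alike within a number (47443061 and 47759013 for number 2, 38811919 and 38428926 for number 3), and what same-numbered samples share is not given in the sources used here. The crossed pairing, added after seeing the data, gave 648 and 872. Having 2 libraries per group limits the precision of every value.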
